A study of Homo sapiens with 6 samples.

Results

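The genes described here carry a cell from G1 into S phase and copy its DNA. They are 45 of the 24878 genes in the deposited table, chosen by name as cyclins E, E2F transcription factors, and genes of origin licensing, the replication fork, nucleotide supply and chromatin assembly. Earlier results of these data were known when they were chosen. All 45 were found, each in 1 row, and all 45 passed the low-count filter. They were measured by RNA-seq of poly-A RNA from MOLM-13, an established human acute myeloid leukaemia line of the M5 (monocytic) type. The groups were cells carrying a CaMK2D knockout (KO) vector switched on by doxycycline, taken after 5 days of the drug (KO day 5, n = 2), the same after 3 days (KO day 3, n = 2), and control cells with a control vector and no doxycycline (n = 2). The KO groups differ from the controls in vector and doxycycline together, which cannot be told apart. Whether the cells were a clone or a pool is not given in the sources used here. Nothing says that a group's libraries are separate cultures, and the p-values therefore cover no more than the variation seen among these 6 libraries, possibly technical.

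As background, entry into S phase starts when cyclin-dependent kinases phosphorylate the retinoblastoma protein and release activating E2F factors, which switch on cyclin E and the replication genes. In G1, the origin recognition complex (ORC), CDC6 and CDT1 load the MCM2-7 ring onto DNA. In S phase CDC45 and the GINS complex turn the ring into the active helicase, and polymerases, the PCNA clamp, nucleotide enzymes and histone chaperones follow. E2F7 and E2F8 act as repressors of the same targets.

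Total counts were 17410879 and 17638179 at KO day 5, 19473291 and 18919951 at KO day 3, and 15456770 and 21081298 in the controls, and member counts ran from 31 to 9566 per library. CAMK2D mRNA stood at 29 and 28.1 CPM (counts scaled to library size with TMM factors) at KO day 5, 14.7 and 15.6 CPM at KO day 3, and 23.0 and 14.5 CPM in the controls. It was thus not below the controls at day 5, and this level does not mark the knockout. Of the myeloid markers, CD33 stood between 47.5 and 55.9 CPM in all 6 libraries, and the summed level of 6 such markers was 747 and 1030 CPM at KO day 5, 806 and 941 CPM at KO day 3, and 1850 and 1910 CPM in the controls. FLT3, a receptor kinase of myeloid progenitors, had 241 and 269 CPM at KO day 5, 341 and 328 CPM at KO day 3, and 1060 and 876 CPM in the controls. CSF1R, the receptor for the macrophage growth factor, had 1.53 and 5.35 CPM at KO day 5, 1.36 and 6.82 CPM at KO day 3, and 30.9 and 41.0 CPM in the controls. Both lay below the controls in all 4 KO libraries. LYZ, the lysozyme of monocytes, split by replicate number, at 19.0 and 229 CPM at KO day 5, 33.6 and 178 CPM at KO day 3, and 139 and 392 CPM in the controls. Of the epithelial keratins, KRT8 had 6.0 and 8.79 CPM at KO day 5, 6.36 and 4.89 CPM at KO day 3, and 5.72 and 4.79 CPM in the controls. KRT18 had 24.7 and 12.7 CPM at KO day 5, 18.9 and 13.9 CPM at KO day 3, and 28.4 and 12.7 CPM in the controls. The collagen gene COL1A1 was at 0 in 4 libraries. Mitochondrially encoded genes took 1.08% and 1.14% of counts at KO day 5, 0.868% and 0.929% at KO day 3, and 3.05% and 2.52% in the controls. The part of these differences in the results below was not tested.

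Promoters of these genes were examined for letters that E2F factors are known to bind. The RefSeq promoter table (GRCh38.p14) had an entry for 40 of the 45 members and none for CCNE2, E2F8, MCM4, MCM5 and GINS4. In windows from 250 bases before to 50 bases after the start, 22 of the 40 (55%) held TTTCCCGC, TTTCGCGC, TTTGCCGC or TTTGGCGC on either strand, counting overlapping matches. The same letters were in 5.53% of the 9982 promoters of genes tested and in 3.31% of all 35116 promoters of the table. CCAAT, the letters bound by the factor NF-Y, stood in 24 members (60%), in 36.8% of promoters of genes tested and in 34.6% of all promoters. A match is a description of sequence and not a site shown to be bound. The 250 bases before the start are printed for E2F3, CDT1, MCM7 and UHRF1, because these are the members past the expression threshold whose window held the E2F letters. They read 5′ to 3′ on the gene's own strand, and capitals mark the E2F letters or CCAAT on either strand.
E2F3, chr6:20401629-20401878, plus strand: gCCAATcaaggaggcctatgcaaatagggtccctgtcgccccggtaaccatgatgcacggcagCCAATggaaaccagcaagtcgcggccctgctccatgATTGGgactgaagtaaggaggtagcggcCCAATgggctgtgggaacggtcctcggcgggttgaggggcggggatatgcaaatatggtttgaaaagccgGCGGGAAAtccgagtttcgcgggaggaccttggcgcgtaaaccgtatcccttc
CDT1, chr16:88803539-88803788, plus strand: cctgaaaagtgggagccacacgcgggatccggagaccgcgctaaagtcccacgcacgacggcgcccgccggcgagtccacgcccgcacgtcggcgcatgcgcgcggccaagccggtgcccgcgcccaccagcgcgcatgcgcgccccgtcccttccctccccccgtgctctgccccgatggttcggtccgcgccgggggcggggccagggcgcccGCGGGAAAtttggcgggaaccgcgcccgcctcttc
MCM7, chr7:100101398-100101647, minus strand: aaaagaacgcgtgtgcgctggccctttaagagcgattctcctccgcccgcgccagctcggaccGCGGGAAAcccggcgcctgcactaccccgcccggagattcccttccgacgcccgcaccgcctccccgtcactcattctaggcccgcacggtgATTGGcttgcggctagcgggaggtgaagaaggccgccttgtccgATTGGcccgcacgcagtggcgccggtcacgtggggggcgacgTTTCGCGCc
UHRF1, chr19:4909251-4909500, plus strand: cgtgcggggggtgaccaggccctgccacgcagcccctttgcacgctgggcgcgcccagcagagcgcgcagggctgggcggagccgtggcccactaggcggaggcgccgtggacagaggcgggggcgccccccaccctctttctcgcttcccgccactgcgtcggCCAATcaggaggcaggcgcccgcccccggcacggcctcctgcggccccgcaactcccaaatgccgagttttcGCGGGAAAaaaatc
In CDT1 and UHRF1 the E2F letters ended 28 and 7 bases before the start. MCM7 held a match ending 180 bases and another ending 2 bases before it. Such matches also occurred in members whose expression did not pass the threshold, such as MCM6, with 4. Members with the E2F letters had a median log2 fold change of -0.60 at KO day 5 against control (22 genes), and those with none of these letters had -0.54 (18 genes). Of the 22 with the letters 4 passed the threshold at KO day 5, and of the 18 without them 5 did.

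**Figure D1:**
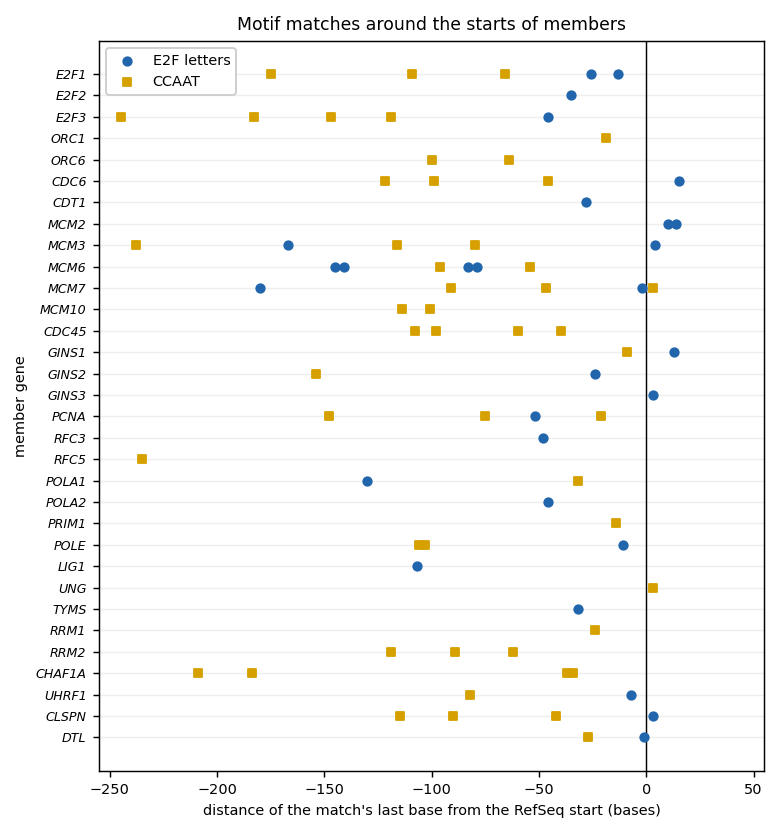
Matches to the E2F letters (circles) and CCAAT (squares) around the starts of the members that hold at least 1 match, by distance in bases from the RefSeq start (vertical line). The E2F letters were found in 22 of 40 members with a promoter entry and lie on both sides of the start, while CCAAT lies before it in all but 2 matches.

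At KO day 5, CCNE1, E2F3, E2F8, CDT1, MCM7, RFC2, POLD1, FEN1, UNG and UHRF1 fell, and 0 of the 45 rose (edgeR quasi-likelihood test, adjusted p under the threshold of 0.05 over 14601 genes). These 10 are 22.2% of the members, where 7.05% of all genes tested fell and 7.44% rose. The median log2 fold change was -0.61 over the 45 members and 0.01 over all genes tested, and 43 of the 45 values were negative. Both KO day 5 libraries lay below both controls for 27 members and above both for 0, where 28.4% of all genes tested lay below and 29.6% above. In bulk RNA, a smaller share of cells in S phase and less transcript per cell cannot be told apart.

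The libraries of a group were not alike for these genes. Replicate 1 stood above replicate 2 in all 3 groups for 35 of the 45 members (77.8%), where 20.2% of all genes tested did. Replicate 1 was the higher for 45 members at KO day 5, 40 at KO day 3 and 40 in the controls, against 51.7%, 47.8% and 49.9% of all genes tested. The median log2 difference of replicate 1 over replicate 2 was 0.61 at KO day 5, 0.20 at KO day 3 and 0.34 in the controls, against 0.01, -0.01 and 0.00 over all genes tested. KO day 5 replicate 2 held the lowest of the 6 values for 42 members (93.3%), where it did so for 18.9% of all genes tested. Summed over the members, the levels were 3560 and 2400 CPM at KO day 5, 4030 and 3440 CPM at KO day 3, and 5020 and 4310 CPM in the controls. Within each replicate number the sum was lowest at KO day 5 and highest in the control.

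Within replicate number 1, 40 of the 45 members were lower at KO day 5 than in the control, with a median log2 ratio of -0.44. Within number 2, 43 were lower, with a median of -0.72. A total of 39 members were lower within both numbers, where 36.4% of all genes tested were. With the replicate number as a block, 30 of the 45 members (66.7%) passed the edgeR threshold as lower and 0 as higher, against 14.5% of all genes tested lower and 15.8% higher. These 30 hold all 10 named above.

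The count of members called moved with each KO day 5 library. Without KO day 5 replicate 2, 2 members passed the edgeR threshold as lower, E2F8 and UNG, while lower calls over all genes tested numbered 363 in place of 1030. Without KO day 5 replicate 1 the count was 18, while lower calls over all genes numbered 475. Without either KO day 3 library or control replicate 1 it was 5, with 721 to 781 lower calls over all genes, and without control replicate 2 it was 9, with 934. In an edgeR fit of only the KO day 5 and control libraries 5 members passed, and CCNE1, E2F3, E2F8, MCM7 and RFC2 did not (adjusted p = 0.0614 to 0.0771). The fits that leave out a library assume that a group left with 1 library varies as the rest do. Without KO day 5 replicate 2, the edgeR adjusted p was 0.128 for CCNE1, 0.199 for E2F3, 0.0847 for CDT1, 0.166 for MCM7, 0.208 for RFC2, 0.0654 for POLD1, 0.0542 for FEN1 and 0.0517 for UHRF1. CDT1, POLD1 and FEN1 kept their calls without any other single library, and UNG without any single library. UHRF1 also lost its call without control replicate 2 (edgeR adjusted p = 0.0521).

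**Figure D2:**
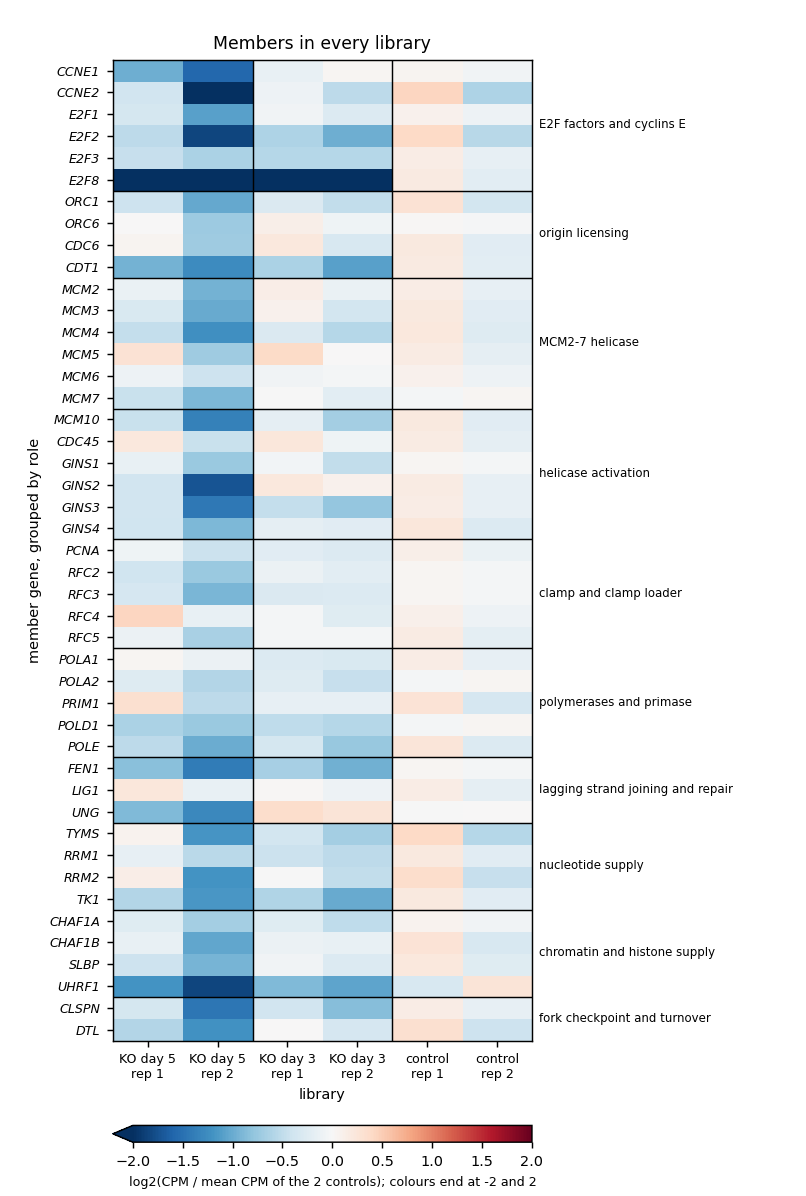
Level of each of the 45 members in every library, as log2 of CPM over the mean of the 2 controls (colour; blue is lower), with genes in rows by role and libraries in columns. KO day 5 replicate 2 is the lowest library for 42 of 45 members, and E2F8 is lower in all 4 KO libraries.

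Among the E2F factors and cyclins E, 3 of 6 members fell at KO day 5 and 0 rose. The shares over all genes tested were 7.05% lower and 7.44% higher. E2F8, a repressor of E2F targets, had 16.9 and 3.93 CPM at KO day 5, 14.2 and 12.1 CPM at KO day 3, and 113 and 86.5 CPM in the controls. All 4 KO libraries lay far below both controls, while the KO days overlapped. Its log2 fold change was -3.26 (SE 0.68, adjusted p = 0.0419 by edgeR) at KO day 5 and -2.92 (SE 0.67, adjusted p = 0.0594 by edgeR) at KO day 3. These correspond to levels 9.58-fold and 7.58-fold lower. The day 5 call failed by edgeR where low counts were not filtered (adjusted p = 0.169), and without any KO day 3 or control library (0.125 to 0.221). Its day 5 log2 fold change was -4.68 without KO day 5 replicate 1 and -2.56 without KO day 5 replicate 2. The day 3 value passed with DESeq2 (adjusted p = 0.00273) and did not pass with the replicate block (edgeR adjusted p = 0.0589). Leaving out 1 library at a time, the day 3 log2 fold change ran from -3.09 to -2.71.

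E2F3, an activating E2F, had 72.4 and 64.2 CPM at KO day 5, 67.5 and 67.4 CPM at KO day 3, and 111 and 89.1 CPM in the controls. It fell at both days to similar levels, with log2 fold changes of -0.55 (SE 0.15, adjusted p = 0.0423 by edgeR) and -0.57 (SE 0.15, adjusted p = 0.0435 by edgeR). Both calls were lost when KO day 5 replicate 1 or 2 was left out (edgeR adjusted p = 0.0888 and 0.199 at day 5, 0.0589 and 0.0579 at day 3). They were also lost when KO day 3 replicate 1 or 2 was left out (edgeR adjusted p = 0.0759 and 0.072 at day 5, 0.22 and 0.23 at day 3) and without control replicate 1 (0.132 and 0.15).

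CCNE1, the cyclin that activates CDK2 at the G1/S boundary, had 5.04 and 3.33 CPM at KO day 5, 8.97 and 10.2 CPM at KO day 3, and 10.3 and 9.44 CPM in the controls. Only the day 5 libraries lay apart, below all 4 others. The log2 fold change was -1.24 (SE 0.29, adjusted p = 0.0295 by edgeR) at KO day 5 against control. It was -0.05 (SE 0.29, adjusted p = 0.937 by edgeR) at KO day 3. The day 5 call was lost without KO day 5 replicate 2 (above), without either KO day 3 library (edgeR adjusted p = 0.0528 and 0.0533) and without either control (0.0868 and 0.0532). E2F1, the founding activator of the family, had 40.0 and 24.1 CPM at KO day 5, 48.6 and 42.1 CPM at KO day 3, and 54.4 and 47.8 CPM in the controls. Its day 5 libraries lay below both controls, but it did not pass in the unblocked edgeR fit. E2F1 passed with the replicate block (edgeR adjusted p = 0.00235), with DESeq2, and by edgeR where low counts were not filtered. E2F1, CCNE2 and E2F2 all joined the calls under the block. Then 6 of 6 were lower, where 14.5% of all genes tested were lower with the block.

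**Figure D3:**
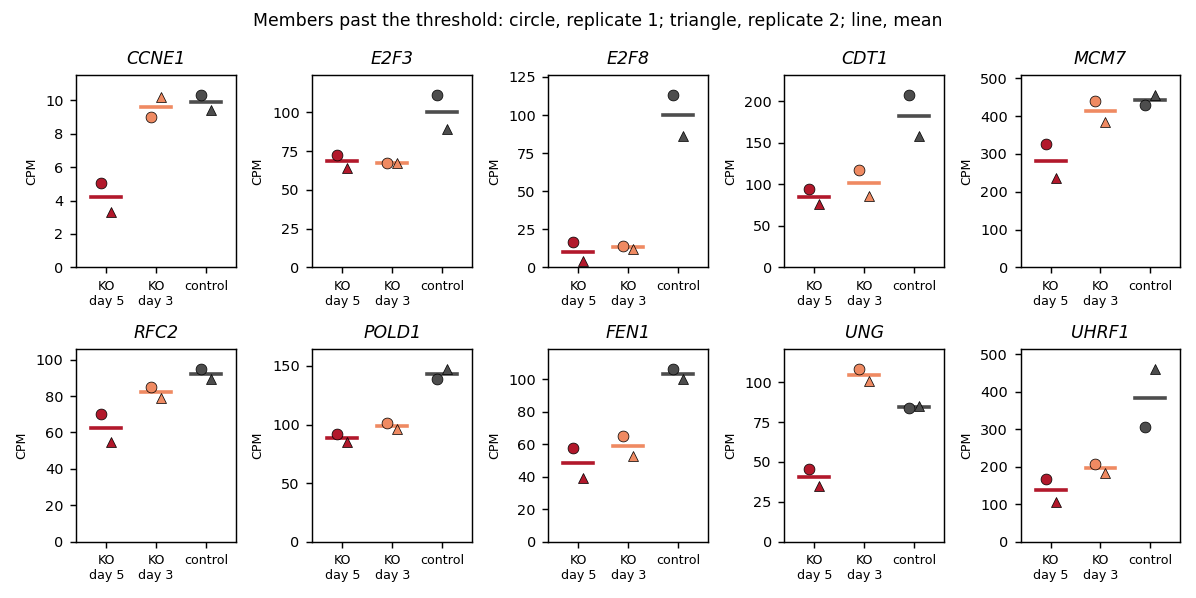
CPM in each library for the 10 members past the threshold in any comparison, by group (KO day 5, KO day 3, control), with circles for replicate 1, triangles for replicate 2 and a line at the mean. In all 10 both KO day 5 libraries lie below both controls, and in UNG both KO day 3 libraries lie above them.

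Of 4 origin licensing genes 1 fell at KO day 5, where 7.05% of all genes tested fell. CDT1, which loads the MCM ring, had 94.2 and 75.7 CPM at KO day 5, 117 and 85.4 CPM at KO day 3, and 207 and 158 CPM in the controls. All 4 KO libraries lay below both controls. It fell with log2 fold changes of -1.10 (SE 0.21, adjusted p = 0.0148 by edgeR) at KO day 5 and -0.85 (SE 0.20, adjusted p = 0.0377 by edgeR) at KO day 3. The day 3 call was lost without either KO day 3 library (edgeR adjusted p = 0.0638 and 0.217) or control replicate 1 (0.152). CDC6, the partner of CDT1 in loading, had 60.4 and 35.5 CPM at KO day 5, 67.5 and 46.4 CPM at KO day 3, and 66.6 and 49.6 CPM in the controls, so that the groups overlapped. ORC1, the largest ORC subunit, had 40.6 and 26.6 CPM at KO day 5, 44.0 and 38.4 CPM at KO day 3, and 66.2 and 41.8 CPM in the controls. It passed at day 5 with the replicate block (edgeR adjusted p = 0.00221), and CDC6 did not (0.096).

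The MCM2-7 ring is a hexamer of 6 different subunits, and their transcripts differed in level. Per length, as deposited FPKM averaged over the 6 libraries, MCM7 stood at 86.0, MCM3 at 76.1, MCM4 at 53.7, MCM6 at 47.3, MCM2 at 30.8 and MCM5 at 23.1. Of the 6, MCM7 passed the threshold at KO day 5 in the unblocked edgeR fit, MCM4 and MCM7 with DESeq2, and MCM2, MCM3, MCM4 and MCM7 by edgeR where low counts were not filtered. MCM7 had 327 and 237 CPM at KO day 5, 440 and 384 CPM at KO day 3, and 430 and 455 CPM in the controls. The KO day 5 libraries lay below the other 4, and those of day 3 overlapped the controls. The log2 fold change was -0.65 (SE 0.17, adjusted p = 0.0371 by edgeR) at KO day 5 and -0.10 (SE 0.17, adjusted p = 0.729 by edgeR) at KO day 3. The day 5 call was lost without any library other than KO day 5 replicate 1 (edgeR adjusted p = 0.0563 to 0.166). AP4M1 exons share 8.94% of MCM7's exon bases.

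MCM3 had 264 and 162 CPM at KO day 5, 345 and 251 CPM at KO day 3, and 372 and 279 CPM in the controls. MCM4 had 348 and 207 CPM at KO day 5, 399 and 327 CPM at KO day 3, and 564 and 406 CPM in the controls. For both genes the KO day 5 libraries lay below the controls. All 6 subunits had negative log2 fold changes at day 5, from -0.81 to -0.13. With the block, MCM2, MCM3, MCM4 and MCM7 passed as lower (edgeR adjusted p = 7.4e-05 to 0.00627), and MCM5 and MCM6 did not (0.372 and 0.122).

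Of the 6 genes of helicase activation, 0 passed the threshold at KO day 5, in the unblocked edgeR fit or with DESeq2. At an unadjusted edgeR p under 0.05 stood 3 of the 6, and 4504 of all 14601 genes tested. With the block 5 passed as lower, where 14.5% of all genes tested did. CDC45, which bridges the ring to GINS, had 46.6 and 29.6 CPM at KO day 5, 46.8 and 37.7 CPM at KO day 3, and 44.9 and 35.5 CPM in the controls. It was the member of this group that did not pass with the block (edgeR adjusted p = 0.66). GINS1 had 36.3 and 23.9 CPM at KO day 5, 38.7 and 28.5 CPM at KO day 3, and 41.1 and 39.2 CPM in the controls. MCM10, which helps to fire the loaded ring, had 38.3 and 20.4 CPM at KO day 5, 46.0 and 32.3 CPM at KO day 3, and 59.6 and 44.3 CPM in the controls. In both, the day 5 libraries lay below both controls, and replicate 1 was the higher of each group.

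PCNA, the sliding clamp, had the highest level per length among the members, at a mean of 135 FPKM. It had 209 and 165 CPM at KO day 5, 190 and 184 CPM at KO day 3, and 242 and 203 CPM in the controls, with day 5 and control overlapping. It passed in neither the unblocked nor the blocked edgeR fit at day 5 (adjusted p = 0.297 and 0.105). RFC2, a small subunit of the clamp loader, had 70.0 and 54.8 CPM at KO day 5, 85.1 and 79.2 CPM at KO day 3, and 94.6 and 89.5 CPM in the controls. The 3 groups did not overlap, with day 5 lowest. RFC2 fell at KO day 5 with a log2 fold change of -0.56 (SE 0.15, adjusted p = 0.0411 by edgeR), and its day 3 value was -0.16 (SE 0.15, adjusted p = 0.506 by edgeR). The day 5 call was lost without either KO day 3 library or control replicate 1 as well (edgeR adjusted p = 0.0694 to 0.0918). RFC3 had 64.3 and 43.4 CPM at KO day 5, 66.4 and 67.3 CPM at KO day 3, and 83.8 and 79.1 CPM in the controls. At day 5 RFC3 passed with the block (edgeR adjusted p = 0.00332) and with DESeq2.

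Of the 5 polymerase and primase genes, POLD1 fell at KO day 5, where 7.05% of all genes tested fell. The other 4 did not pass the threshold in the unblocked edgeR fit, though POLE passed with DESeq2. POLD1, the catalytic subunit of polymerase delta, had 92.1 and 85.5 CPM at KO day 5, 101 and 96.6 CPM at KO day 3, and 139 and 147 CPM in the controls. The 3 groups did not overlap, and the spread within each was small. It fell at both days, with log2 fold changes of -0.69 (SE 0.12, adjusted p = 0.0095 by edgeR) and -0.54 (SE 0.12, adjusted p = 0.0256 by edgeR). The day 3 call was lost without either KO day 3 library (edgeR adjusted p = 0.16 and 0.217). POLE, the catalytic subunit of the leading strand polymerase, had 105 and 76.0 CPM at KO day 5, 118 and 89.3 CPM at KO day 3, and 178 and 125 CPM in the controls. All 4 KO libraries lay below both controls, and POLE passed with the block at both days (edgeR adjusted p = 8.64e-05 and 0.00165). PRIM1, the primase subunit that makes RNA primers, had 29.3 and 16.3 CPM at KO day 5, 20.9 and 20.9 CPM at KO day 3, and 28.2 and 18.5 CPM in the controls, with all groups overlapping.

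Of the 3 lagging strand and repair genes, FEN1 and UNG fell at KO day 5, where 7.05% of all genes tested fell. LIG1 did not pass the threshold. FEN1, the flap endonuclease that trims Okazaki fragments, had 57.7 and 39.2 CPM at KO day 5, 65.1 and 53.0 CPM at KO day 3, and 106 and 99.9 CPM in the controls. It fell at both days, with log2 fold changes of -1.08 (SE 0.20, adjusted p = 0.0129 by edgeR) and -0.80 (SE 0.20, adjusted p = 0.0384 by edgeR). The day 3 call was lost without either KO day 3 library (edgeR adjusted p = 0.106 and 0.238) or either control (0.14 and 0.0887). FADS2 and TMEM258 exons share 8.68% of FEN1's exon bases, and FADS2 itself stood at 12.6 and 10.2 CPM at KO day 5, 10.7 and 6.93 CPM at KO day 3, and 102 and 120 CPM in the controls. The part of these shared bases in the FEN1 value was not tested. LIG1, the ligase that seals the fragments, had 58.7 and 45.4 CPM at KO day 5, 51.0 and 46.9 CPM at KO day 3, and 55.8 and 44.4 CPM in the controls, with overlapping groups in each comparison.

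UNG, the glycosylase that removes uracil from DNA, was the member whose KO days lay on opposite sides of the controls. It had 45.9 and 34.8 CPM at KO day 5, 108 and 101 CPM at KO day 3, and 83.9 and 85.3 CPM in the controls. The 3 groups did not overlap. UNG fell at KO day 5 with a log2 fold change of -1.07 (SE 0.16, adjusted p = 0.00562 by edgeR), a call that held without any single library (0.00743 to 0.0308). At KO day 3 its value was 0.31 (SE 0.15, adjusted p = 0.228 by edgeR), which did not pass. KO day 5 against KO day 3 gave -1.37 (SE 0.16, adjusted p = 0.0586 by edgeR). That difference passed with the block (edgeR adjusted p = 9.19e-06) and with DESeq2 (adjusted p = 1.37e-10). It did not pass in an edgeR fit of only the KO day 5 and KO day 3 libraries. Leaving out 1 library at a time, its log2 fold change ran from -1.6 to -1.19.

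Nucleotide supply genes had negative log2 fold changes at KO day 5, with 0 of 4 past the threshold in the unblocked edgeR fit (1 at an unadjusted p under 0.05, and 1 with DESeq2, TK1). TK1, the thymidine kinase of the salvage route, had 45.2 and 30.2 CPM at KO day 5, 44.9 and 33.6 CPM at KO day 3, and 77.7 and 58.1 CPM in the controls. All 4 KO libraries lay below both controls, and TK1 passed with the block at both days (edgeR adjusted p = 0.000103 and 0.000272). RRM1, the large subunit of ribonucleotide reductase, had 94.2 and 72.8 CPM at KO day 5, 78.9 and 73.9 CPM at KO day 3, and 122 and 90.2 CPM in the controls. RRM2, the small subunit, had 43.6 and 17.3 CPM at KO day 5, 39.7 and 28.3 CPM at KO day 3, and 50.6 and 29 CPM in the controls. RRM1 passed with the block at both days (edgeR adjusted p = 0.0429 and 0.00967), and RRM2 at neither (0.0697 and 0.485).

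Chromatin genes were led by UHRF1, which directs maintenance DNA methylation behind the fork. UHRF1 had 167 and 107 CPM at KO day 5, 207 and 184 CPM at KO day 3, and 306 and 459 CPM in the controls. The 3 groups did not overlap, and here control replicate 2 was the higher control, unlike most members. Its log2 fold change was -1.48 (SE 0.26, adjusted p = 0.016 by edgeR) at KO day 5, where it fell. At KO day 3 it was -0.97 (SE 0.26, adjusted p = 0.0596 by edgeR). That day 3 value passed with DESeq2 (adjusted p = 0.00217) and did not pass with the replicate block (edgeR adjusted p = 0.128). Leaving out 1 library at a time, it ran from -1.23 to -0.64. SLBP, which binds the ends of histone mRNAs, had 76.9 and 53.7 CPM at KO day 5, 97.2 and 84.4 CPM at KO day 3, and 118 and 86.2 CPM in the controls. CHAF1A, a subunit of the chromatin assembly factor CAF-1, had 113 and 83.4 CPM at KO day 5, 113 and 93.9 CPM at KO day 3, and 140 and 128 CPM in the controls. Both passed with the block at day 5 (edgeR adjusted p = 0.00057 and 0.00618), and SLBP also with DESeq2.

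The pair of fork checkpoint and turnover genes did not pass at day 5 in the unblocked edgeR fit. Both passed with the block and by edgeR where low counts were not filtered, and DTL also with DESeq2. CLSPN, the adaptor that activates CHK1 at stalled forks, had 28.7 and 13.4 CPM at KO day 5, 28.1 and 20.3 CPM at KO day 3, and 40.5 and 32.6 CPM in the controls (block, edgeR adjusted p = 0.00183). DTL, which recruits the ligase that degrades CDT1 in S phase, had 38.9 and 25.2 CPM at KO day 5, 59.0 and 46.3 CPM at KO day 3, and 73.0 and 44.2 CPM in the controls (block, edgeR adjusted p = 0.000172). The day 5 libraries lay below both controls in each gene.

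In 4 of the other 15 members both KO day 5 libraries lay below both controls, where 28.4% of all genes tested did. These 15 ranged from 1.69 to 223 CPM. Their log2 fold changes at KO day 5 ran from -1.05 to 0.17, and 0 passed the unblocked edgeR threshold. Among all members, 7 shared more than 20% of their exon bases with another gene, led by TYMS (46.6%, with ENOSF1 and TYMSOS). Without strand, reads of such genes cannot be told apart, and 8 members have annotated pseudogene copies, among them E2F3, PCNA, FEN1 and UNG.

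**Figure D4:**
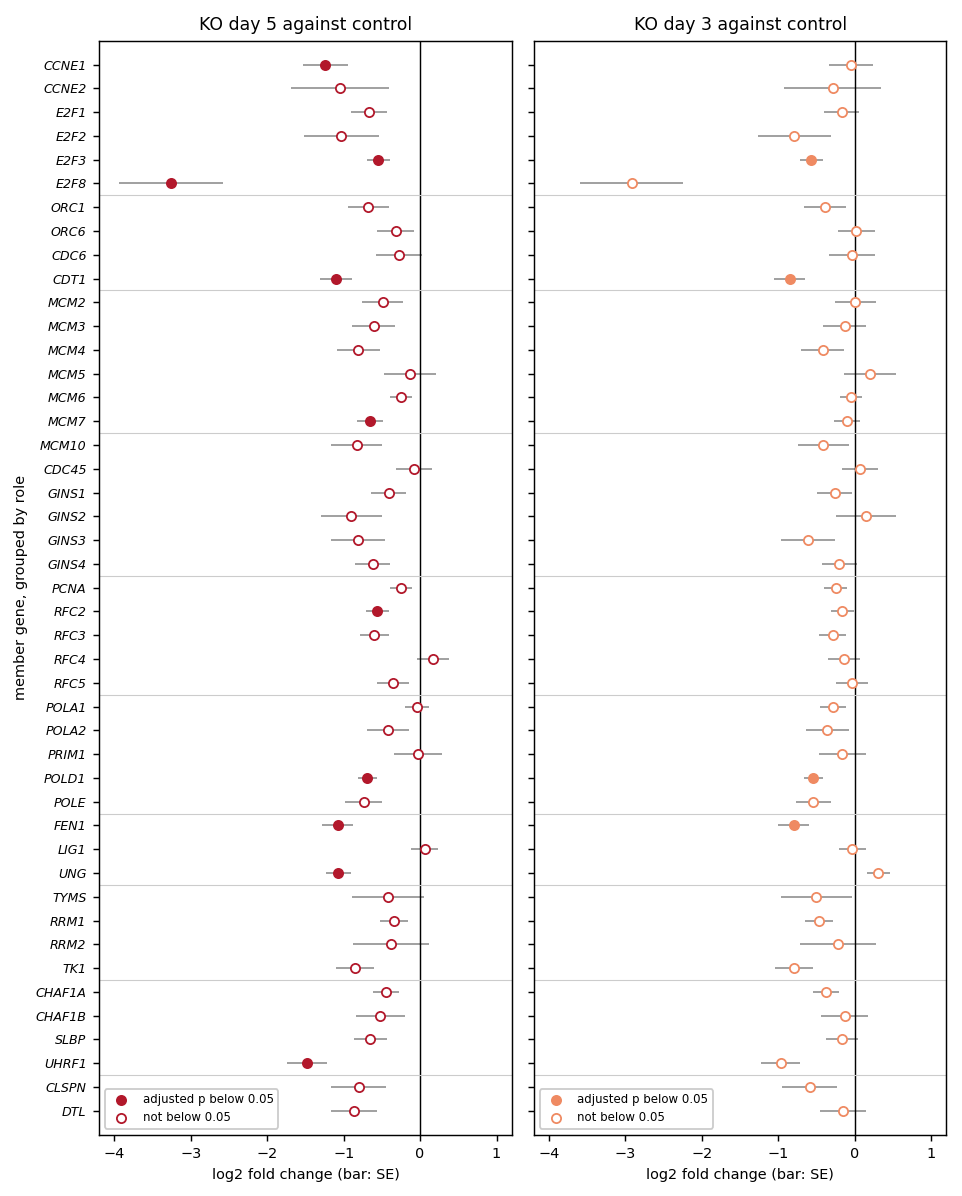
Log2 fold change of each member against control with its standard error, at KO day 5 (left) and KO day 3 (right), with filled points where the edgeR adjusted p was below 0.05. At day 5, 43 of 45 values are negative and 10 are filled, and at day 3, 39 are negative and 4 are filled.

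At KO day 3 the members lay nearer to the controls. E2F3, CDT1, POLD1 and FEN1 fell and 0 rose (edgeR adjusted p under 0.05). These 4 are 8.89% of the members, where 5.99% of all genes tested fell and 5.72% rose, so the share was near the background. All 4 also fell at day 5, against the same controls. The median log2 fold change was -0.25, against 0.00 over all genes tested, and 39 of 45 values were negative. Both day 3 libraries lay below both controls for 20 members and above both for UNG alone, where 30.1% of all genes lay below and 30.3% above. Within both replicate numbers 28 were lower, where 37.9% of all genes were. With the replicate block 12 members (26.7%) passed as lower and 0 as higher, where 14.2% of all genes passed as lower and 13.6% as higher. These were E2F2, E2F3, CDT1, MCM4, MCM10, POLD1, POLE, FEN1, RRM1, TK1, CHAF1A and CLSPN. Without KO day 3 replicate 1 or 2 the unblocked edgeR count of members was 0, while all genes called numbered 282 and 333 in place of 1710. Without control replicate 1 it was 1, POLD1, with 1059 of all genes called. In an edgeR fit of only the KO day 3 and control libraries E2F8, POLD1, FEN1 and UHRF1 passed, and E2F3 and CDT1 did not (adjusted p = 0.0603 and 0.0513).

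Between the KO days, 0 of the 45 members passed the unblocked edgeR threshold. Of all genes tested 0.0274% rose and 0 fell, so this fit made almost no calls. At an unadjusted edgeR p under 0.05 stood 6 members, and 2206 of all 14601 genes tested. CCNE1 and UNG passed with DESeq2, which called 435 of all genes. The median log2 fold change of KO day 5 over KO day 3 was -0.29 for the members and 0.02 for all genes. Both day 5 libraries lay below both day 3 libraries for 16 members and above both for POLA1, where 23.8% of all genes lay below and 25.5% above. Within both replicate numbers 30 were lower at day 5, where 33.0% of all genes were. The median log2 ratio was -0.09 within replicate number 1 and -0.60 within number 2, with the larger difference within number 2. With the block 10 members (22.2%) passed as lower at day 5, and 0 as higher, where 3.21% of all genes passed as lower, 4.44% as higher and 7.65% in either direction. They were CCNE1, E2F1, MCM2, MCM3, MCM4, MCM7, GINS2, UNG, SLBP and DTL. CCNE1 had a log2 fold change of -1.19 (SE 0.29, adjusted p = 0.187 by edgeR, and 0.0147 with the block), and MCM7 had -0.55 (SE 0.17, adjusted p = 0.225 by edgeR, and 0.0152 with the block). E2F8, E2F3 and TK1, whose KO libraries lay below both controls at both days, did not pass between the days with the block (edgeR adjusted p = 0.719, 0.964 and 0.806).

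**Figure D5:**
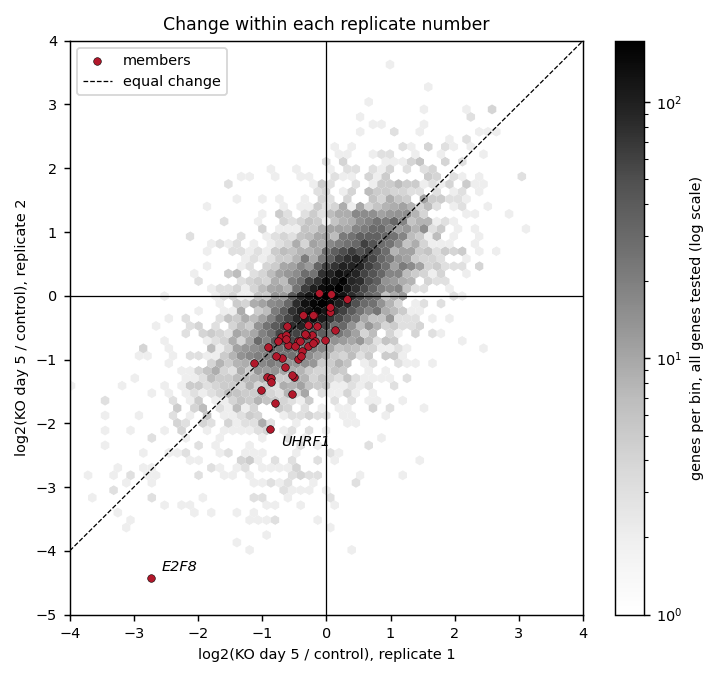
Log2 ratio of KO day 5 over control within replicate number 1 (x axis) and within number 2 (y axis), with 0.1 CPM added to each value, for the 45 members (points) over all genes tested within 4 log2 units (grey bins, log colour scale). Of the members, 39 are negative within both numbers, and most lie below the dashed line of equal change, with the lower ratio within number 2.

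Other genes of the pathway were taken from lists chosen beside the members. Of all genes tested, 7.05% fell and 7.44% rose at KO day 5, and the counts of each list stand beside these shares. Of 33 tested genes of the replication machinery outside the members, 1 (3.03%) fell and 3 rose at KO day 5. Their median log2 fold change was -0.02. ORC3 and ORC5, subunits of the origin recognition complex, rose. ORC3 had 23.1 and 25.3 CPM at KO day 5, 15.4 and 16.8 CPM at KO day 3, and 8.87 and 7.67 CPM in the controls, a log2 fold change of 1.55 (SE 0.20, adjusted p = 0.00361 by edgeR). ORC5 had 26.3 and 29.7 CPM at KO day 5, 23.1 and 23.1 CPM at KO day 3, and 11.8 and 8.44 CPM in the controls, a log2 fold change of 1.47 (SE 0.21, adjusted p = 0.0052 by edgeR). Both lay above the controls in all 4 KO libraries, where CDT1 lay below. ORC4 rose by 0.76 (SE 0.21, adjusted p = 0.0475 by edgeR), a call lost without any single library (0.0512 to 0.246) and with relative log expression factors (0.0529). TICRR, which helps to load CDC45, had 12.2 and 5.79 CPM at KO day 5, 14.5 and 13.9 CPM at KO day 3, and 38.1 and 26.5 CPM in the controls. It fell with a log2 fold change of -1.84 (SE 0.35, adjusted p = 0.0166 by edgeR), a call lost without control replicate 1 (0.0582). Without KO day 5 replicate 1 the TICRR value was -2.49.

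Of 19 regulators of E2F, RB and CDK2, 3 (15.8%) fell and 1 rose at KO day 5. Of all genes tested 7.05% fell and 7.44% rose. CDK2, the kinase partner of cyclin E, had 24.3 and 19.1 CPM at KO day 5, 21.4 and 21.9 CPM at KO day 3, and 43.2 and 39.4 CPM in the controls. Its KO days overlapped, with log2 fold changes of -0.93 (SE 0.18, adjusted p = 0.0144 by edgeR) and -0.93 (SE 0.18, adjusted p = 0.0165 by edgeR). The day 5 call failed when KO day 5 replicate 2 was left out (edgeR adjusted p = 0.0822). E2F7, the repressor related to E2F8, had 16.3 and 8.19 CPM at KO day 5, 17.0 and 13.6 CPM at KO day 3, and 36.8 and 26.5 CPM in the controls. It fell at KO day 5 with a log2 fold change of -1.37 (SE 0.34, adjusted p = 0.0364 by edgeR), a call lost without any library other than KO day 5 replicate 1 (0.0502 to 0.139), where the value was -1.96. RBL2, a pocket protein related to RB, fell by 0.63 on the log2 scale (SE 0.14, adjusted p = 0.0215 by edgeR), a call that failed when KO day 5 replicate 1 or 2 was left out, or control replicate 1 (0.0876, 0.096 and 0.0546). FBXW7, which targets cyclin E for breakdown, rose by 0.63 (SE 0.18, adjusted p = 0.0487 by edgeR), a call lost without any single library (0.115 to 0.155) and with relative log expression or upper-quartile factors (0.055 and 0.0501).

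Of 18 other nucleotide supply genes, 0 fell and 2 rose at KO day 5 by edgeR, against 7.05% and 7.44% of all genes tested. At an unadjusted edgeR p under 0.05 stood 3 of the 18, and 4504 of all 14601 genes tested. RRM2B, the p53-inducible small subunit of ribonucleotide reductase, had 94.9 and 139 CPM at KO day 5, 51.1 and 70.0 CPM at KO day 3, and 51.5 and 65.9 CPM in the controls. It rose with a log2 fold change of 0.99 (SE 0.24, adjusted p = 0.0335 by edgeR), a call that failed without either control or KO day 5 replicate 2 (0.163, 0.0662 and 0.141). The RRM2B libraries of day 5 lay above all 4 others. PPAT, an enzyme of purine synthesis, rose by 0.74 (SE 0.16, adjusted p = 0.0208 by edgeR), a call lost without any library other than control replicate 1 (0.0504 to 0.0964). GART, of purine synthesis, had -0.27 (SE 0.12, adjusted p = 0.167 by edgeR).

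Of 19 tested repair and chromatin genes with S-phase expression, 2 (10.5%) fell and 0 rose at KO day 5, with a median log2 fold change of -0.31. Of all genes tested 7.05% fell and 7.44% rose. DNMT1, the maintenance DNA methyltransferase that works with UHRF1, had 412 and 310 CPM at KO day 5, 387 and 359 CPM at KO day 3, and 616 and 546 CPM in the controls. All 4 KO libraries lay below both controls, with log2 fold changes of -0.69 (SE 0.16, adjusted p = 0.0263 by edgeR) and -0.64 (SE 0.16, adjusted p = 0.0377 by edgeR). The day 5 call was lost when KO day 5 replicate 2 or control replicate 1 was left out (edgeR adjusted p = 0.126 and 0.0723). PCLAF, a PCNA-binding protein, fell by 1.18 on the log2 scale (SE 0.31, adjusted p = 0.0438 by edgeR), a call lost without any library other than KO day 5 replicate 1 (0.0718 to 0.187), where the value was -1.78. ASF1B and BARD1 had -1.10 (SE 0.34, adjusted p = 0.0872 by edgeR) and -0.64 (SE 0.22, adjusted p = 0.0884 by edgeR), and both passed with the block (0.00387 and 0.0221). With the block the calls at KO day 5 were 5 lower and 4 higher for the replication machinery, 6 and 1 for the regulators, 1 and 2 for nucleotide supply, and 7 and 1 for repair and chromatin, where 14.5% and 15.8% of all genes were called.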

How the data were processed

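Poly-A RNA of 6 MOLM-13 libraries was measured. The authors deposited raw read counts and FPKM values per gene, per the file headers. HISAT2, HTSeq 0.11.2, DESeq2 1.26.0 and GRCh38 are named in the submitters' processing notes without role or order. Neither annotation nor strand setting is named there. The deposited FPKM equals the count over the table total and a whole-number length (to within 0.001) for all 11370 genes checked, at 50 counts or more.

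Counts were tested with edgeR 4.0.16 in R 4.3.3, using 14601 genes kept by filterByExpr (minimum count 10, minimum total 15), TMM factors and 1 robust quasi-likelihood fit of 3 groups, with Benjamini-Hochberg adjustment over all genes. Standard errors (SE) were derived by dividing the size of each log2 fold change by the root of its F statistic. Coordinates come from GENCODE release 29 on GRCh38, promoters from RefSeq. The test was also run on counts simulated independently for each library, which hold no deviations shared by replicate number. That run therefore does not cover such deviations. Alternatives were other factors and filters, DESeq2 1.42.0, fits of the compared groups, a replicate block and leaving out each library.

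The replicate numbers come from the labels, whose titles also pair libraries by letter. Deviations of same-numbered libraries from their group means correlated at 0.347 (day 5 and day 3), 0.303 (day 5 and control) and 0.355 (day 3 and control) over 14601 genes. Blocked counts are therefore given, with blocked p-values for many but not all of the calls that changed. The labels do not say what the numbers stand for. Members and lists were chosen with earlier results of these data known. Named genes were members past the threshold in any comparison, the 3 highest by FPKM in each role, and the 4 smallest p-values at day 5 in each other list. Some genes that these rules or the marker lists name are not reported here. Counting error weighs most on low members. A count of 0 allows an expected count of up to about 3, and the lowest member count was 31.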

Additional observations from a re-analysis of the deposited data

Results flagged for a closer look

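UNG was picked out because its KO days lay on opposite sides of the controls, with both KO day 5 libraries below and both KO day 3 libraries above. The log2 fold change of KO day 5 over KO day 3 was -1.37 (edgeR adjusted p = 0.0586, and 9.19e-06 with the replicate block), so the difference missed the threshold in the unblocked fit.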

How the results depend on the processing

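Members called at KO day 5 numbered 10, and 27 without a filter, 17 with DESeq2, 5 with only the groups compared and 30 with the replicate block, against 2 to 18 leaving out 1 library. At KO day 3 they numbered 4, and 10 without a filter, 7 with DESeq2 and 12 with the block (0 to 5 leaving out 1 library), and between the days 0, and 9, 2 and 10 (0 to 1). None was called higher in any of these fits. With DESeq2, 2977 of all genes were called at KO day 5, 1518 of them lower. Relative log expression and upper-quartile factors kept all 10 and all 4 calls. All genes called were 2117 at day 5 (3234 without a filter, 1315 with only the groups compared, 4418 with the block, 723 to 1874 leaving out 1 library), 1710 at day 3 (2925 without a filter, 2638 with DESeq2, 4064 with the block, 282 to 1906) and 4 between the days (599, 435 and 1117, 1 to 15). For the other lists, unblocked calls in either direction at day 5, at day 3 and between the days were 4, 4 and 0 for the replication machinery (2 to 5, 0 to 6 and 0 to 0 leaving out 1 library), 4, 2 and 0 for the regulators (0 to 3, 0 to 3 and 0 to 0), 2, 2 and 0 for nucleotide supply (0 to 2, 0 to 2 and 0 to 0), and 2, 2 and 0 for repair and chromatin (0 to 4, 0 to 3 and 0 to 0). With the block on all 6 libraries they were 9, 10 and 1, then 7, 7 and 2, then 3, 5 and 2, and then 8, 9 and 2, in the same order of lists. With only the groups compared, ORC4, E2F7, FBXW7, PPAT, DNMT1 and PCLAF also lost their day 5 calls (edgeR adjusted p = 0.0534 to 0.113). Some log2 fold changes smaller than their SE changed sign in places. CCNE1 at day 3 gave 0.05 and 0.02 without KO day 3 replicate 1 and control replicate 1 (range -0.12 to 0.05), and MCM7 gave 0.01 without KO day 3 replicate 2 (range -0.19 to 0.01). Between the days E2F3 gave 0.00 with upper-quartile factors, -0.03 without a filter, and -0.09, -0.02, -0.02 and -0.02 without KO day 5 replicate 1, KO day 3 replicate 1 or 2, and control replicate 2 (range -0.09 to 0.1), and E2F8 gave 0.36 without KO day 5 replicate 2 (range -1.76 to 0.36). The cause of these changes was not tested. Beside the calls given above, the replicate block changed no other call of a named gene where its unblocked adjusted p is printed. Some day 3 values not printed above passed with the block and not in the unblocked edgeR fit. Among them were TICRR and E2F7 (edgeR adjusted p = 0.000594 and 0.000513 with the block). Among members the block turned only the direction of TYMS between the days, which passed in neither fit. With 2 libraries a group, CCNE2, at 31 counts in KO day 5 replicate 2, has the thinnest counts among the members.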
